A study of Mus musculus with 6 samples.

Results

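The receptors for the neuropeptides that injured sensory neurons make were followed in mouse dorsal root ganglia (DRG), where the cell bodies of sensory neurons lie. The 10 receptor genes were Cckbr, Cckar, Galr1, Galr2, Npy1r, Npy2r, Adcyap1r1, Vipr2, Ntsr2 and Crhr1, taken by symbol from a table of 57180 genes, and each symbol matched 1 gene. All 10 passed the filter on low counts and were among the 16346 genes tested. Ganglia from thoracic level 8 to lumbar level 2 were taken 24 h after kidney surgery from 3 sham-operated mice and 3 mice with renal ischemia-reperfusion (I/R), all wild-type (WT), with 1 RNA sequencing library per mouse. For I/R the left renal pedicle, the stalk of vessels at the kidney, was clamped for 28 min and released, and the right kidney was removed. Sham mice went through the same procedures except for the clamp, per the labels, which do not name the removal of the right kidney for them separately. All mice were anesthetized with Zoletil, and the labels do not state their age, sex or strain. The comparison addresses the effect of renal I/R on sensory ganglia.

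Neuropeptides are released from sensory neurons in dense-core vesicles and act on G protein-coupled receptors on neurons, glia and vessels. After damage to their axons, DRG neurons are known to make galanin, neuropeptide Y and other peptides, and receptors for these peptides on the same or neighbouring cells tune pain signaling. The cholecystokinin B receptor is a textbook example of a receptor gene induced in DRG neurons by axon injury. Galanin, neuropeptide Y and their receptors on sensory neurons mostly act through inhibitory G proteins, while the receptors for PACAP, VIP and corticotropin-releasing hormone mostly raise cyclic AMP.

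Of the 10 receptors, 1 rose and none fell. It was Cckbr, which rose 11.7-fold, from the second lowest level per length of the set to the fifth highest. The other 9 did not pass the test, and the genes of 5 peptides, among them those for galanin, neuropeptide Y and neurotensin, rose in the same libraries. Calls were made with edgeR's quasi-likelihood test at a Benjamini-Hochberg adjusted p under 0.05 over all genes, by which 1.15% of tested genes were called, 0.722% higher and 0.428% lower. Robust dispersion, DESeq2 and no filter on low counts each called 2 of the 10, Cckbr and Cckar.

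The promoter of Cckbr is shown because it is the receptor gene whose transcript rose. It is the RefSeq promoter of build GRCm38.p6, plus strand, chr7:105425481-105425780, with 250 bases before the annotated start in lower case and the 50 bases after it in capitals.
Cckbr: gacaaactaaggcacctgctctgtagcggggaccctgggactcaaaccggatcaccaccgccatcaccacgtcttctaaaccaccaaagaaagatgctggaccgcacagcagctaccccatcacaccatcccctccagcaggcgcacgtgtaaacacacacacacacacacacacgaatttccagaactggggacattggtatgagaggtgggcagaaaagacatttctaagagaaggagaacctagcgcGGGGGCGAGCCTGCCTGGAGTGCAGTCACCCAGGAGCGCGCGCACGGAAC
Promoters of 300 bases were at hand for 8 of the 10 receptors and were searched on both strands for TGANTCA, the motif of AP-1 factors such as those of the Fos, Jun and Atf families, and for TGACG, the core of the cyclic AMP response element. By their letters the motifs cannot share bases on either strand. The Cckbr promoter held neither. In all, 7.81% of the 32851 promoters in the table held TGANTCA and 20.8% held TGACG. Among the 8 receptors, 1 held TGANTCA, Npy1r, with its first base 231 bases before the start, and none held TGACG. The match in Npy1r is shown with 12 bases on each side and the motif in capitals (shown stretch chr8:66697179-66697209, plus strand, GRCm38.p6). Beside it stands the promoter stretch of Atf3, a gene whose level followed that of Cckbr across libraries, with a TGACG match on the opposite strand (chr1:191183324-191183352, minus strand, GRCm38.p6). Fgf3 and Sez6l, whose levels also followed Cckbr, held neither motif in their promoters.
Npy1r: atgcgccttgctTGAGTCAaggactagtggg
Atf3: ttaatagcattaCGTCAgcctgggattgg
A match is a string of letters in this window, and no binding was measured.

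Cckbr (ENSMUSG00000030898) encodes the cholecystokinin B receptor, which binds cholecystokinin and gastrin and couples to the Gq pathway. Its level in CPM, read counts scaled to the size of the library, was 0.491, 0.650 and 0.668 across sham libraries 1 to 3, against 6.92, 7.26 and 7.12 across I/R libraries 1 to 3. The lowest I/R library was far above the highest sham library, and the 3 I/R libraries lay close together. These levels rest on 10, 13 and 13 reads (the authors' expected counts, rounded) in the sham libraries and 140, 150 and 156 in the I/R libraries. Sham 1 lay just under the limit of the filter on low counts, so Cckbr passed that filter through its I/R reads. Without the filter its log2 fold change was 3.54. The mean rose from 0.603 ± 0.0976 to 7.10 ± 0.173 CPM (SD, n = 3 mice per group), a log2 fold change of 3.55 ± 0.20 SE and an 11.7-fold change with a 95% interval of 8.59 to 15.9 (edgeR adjusted p = 2.17e-05). Bulk tissue was sequenced, so more cells with the transcript and more transcript per cell cannot be told apart here.

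**Figure D1:**
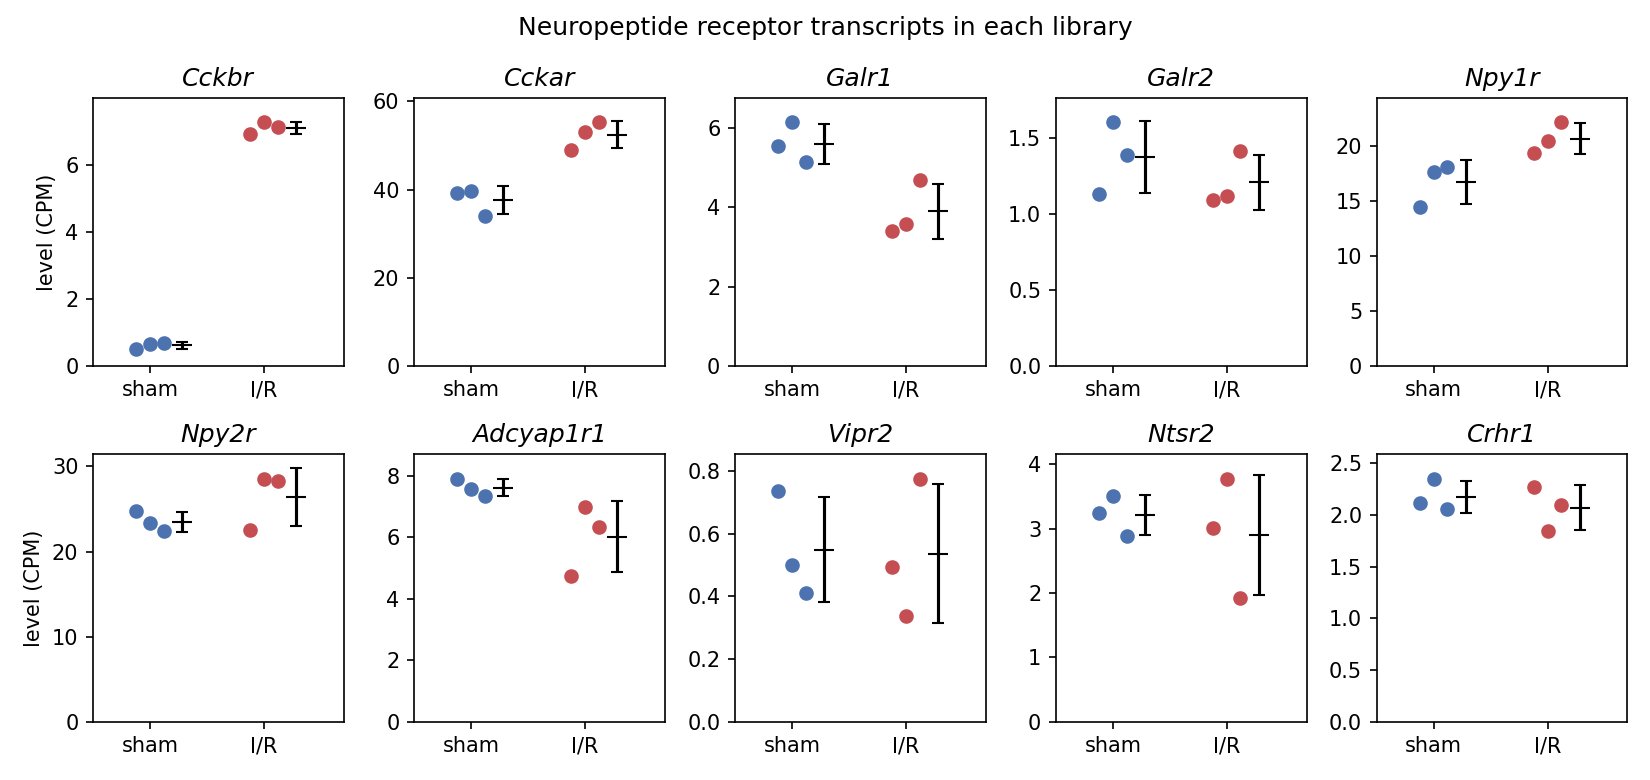
CPM of each receptor (vertical axes, starting at 0 and scaled per gene) in the 3 sham (blue) and 3 I/R (red) libraries, with black bars for the mean and SD. Cckbr rises from at most 0.668 to at least 6.92 CPM, and Cckar, Galr1, Npy1r and Adcyap1r1 also show no overlap between the groups, by much smaller amounts.

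Cckar (ENSMUSG00000029193) encodes the cholecystokinin A receptor, which prefers the sulfated peptide and is known from vagal sensory neurons. It stood at 39.2, 39.6 and 33.9 CPM across sham libraries 1 to 3, against 49.0, 53.2 and 55.3 CPM across I/R libraries 1 to 3, so the groups did not overlap. Its log2 fold change was 0.48 ± 0.10 SE, a 1.40-fold difference with a 95% interval of 1.19 to 1.64, and it did not pass the test over all genes (edgeR adjusted p = 0.0661). The adjusted p was 0.0149 in DESeq2, 0.0477 with robust dispersion and 0.0180 without the filter on low counts, and its range over all 16 alternatives was 0.0149 to 1.

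Neither gene for the peptides that these receptors bind had more than a few reads in a library. Cck, the cholecystokinin gene, had 9 reads summed over sham and 10 over I/R libraries and was filtered out as too low to test. Gast, the gastrin gene, had 0 reads in all 6 libraries, which allows up to 0.137 to 0.154 CPM in a library (3 reads). These limits cover counting error only.

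Per transcript length, the scale on which genes can be compared, Cckar was the highest of the 10 in both groups, with 12.8 ± 1.08 RPKM (CPM per kilobase of gene length) in sham and 17.9 ± 1.08 RPKM in I/R. Npy2r followed with 6.99 ± 0.350 and 7.87 ± 1.01 RPKM, Npy1r with 5.57 ± 0.663 and 6.87 ± 0.471 RPKM, and Adcyap1r1 with 4.83 ± 0.178 and 3.82 ± 0.729 RPKM. In sham the neighbours Npy1r and Adcyap1r1, Ntsr2 and Galr1, and Cckbr and Vipr2 overlapped in their libraries' values. In I/R ganglia the neighbours that overlapped were Npy2r and Npy1r, and Ntsr2 and Galr1. All other neighbours in the order were separate in the 3 libraries of a group.

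Cckbr stood at 0.234 ± 0.0379 RPKM in sham, the ninth in the order and beside Vipr2 at 0.162 ± 0.0497 RPKM. In I/R ganglia it stood at 2.76 ± 0.0672 RPKM, between Adcyap1r1 and Ntsr2 and separate from both. Its share of the summed RPKM of the 10 receptors was 0.524%, 0.671% and 0.753% across sham libraries 1 to 3, against 6.67%, 6.16% and 6.004% across I/R libraries 1 to 3. The summed level itself was 36.2 ± 1.58 RPKM in sham and 44.1 ± 3.24 RPKM in I/R, and Cckar made up 35.4 ± 1.65% and 40.7 ± 0.961% of it. Even after its rise, Cckbr remained 6.49-fold below Cckar on this scale, against 56.1-fold in sham (means of the per-library ratios).

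**Figure D2:**
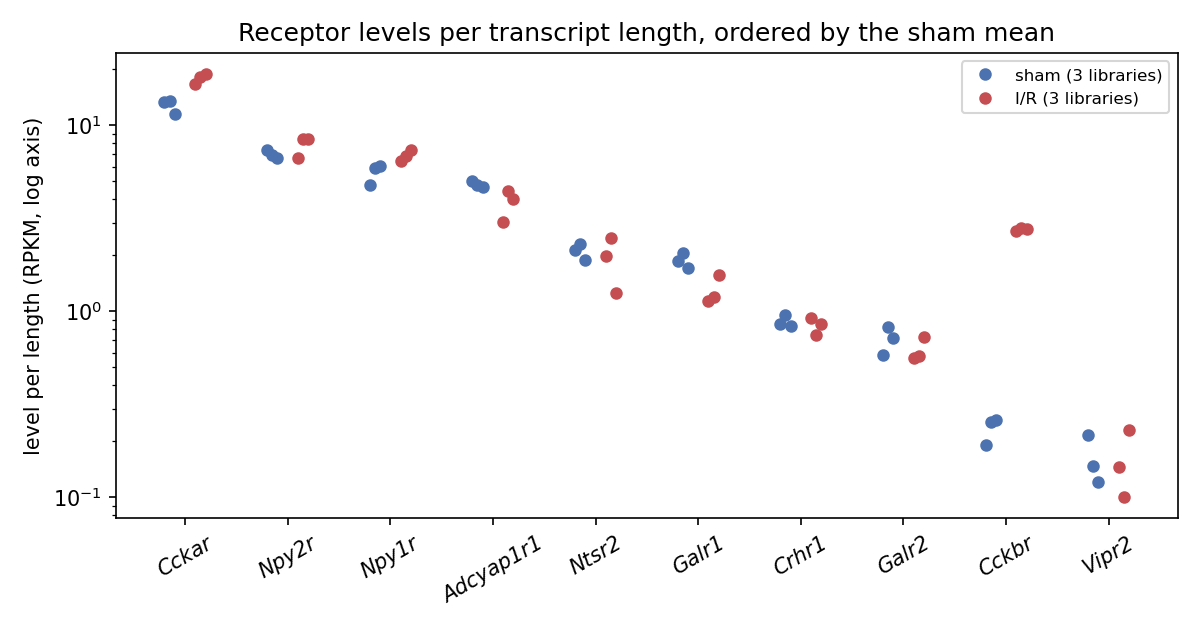
RPKM of each receptor on a log axis, ordered by the sham mean, with 1 point per library (sham blue, I/R red). Cckbr moves from beside Vipr2 to between Adcyap1r1 and Ntsr2, and the means of the other 9 stand in the same order in both groups.

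The receptors for galanin, an inhibitory peptide of injured sensory neurons, did not pass the test. Galr1 (ENSMUSG00000024553), which couples to inhibitory G proteins, stood at 5.55, 6.15 and 5.14 CPM across sham libraries 1 to 3, against 3.41, 3.58 and 4.70 CPM across I/R libraries 1 to 3. All 3 I/R values were below all 3 sham values. The log2 fold change was -0.52 ± 0.18 SE, with a 95% interval of 0.529 to 0.914 for the fold (edgeR unadjusted p = 0.0143, adjusted p = 0.289). Galr2 (ENSMUSG00000020793), which couples to Gq, stood at 1.13, 1.60 and 1.39 CPM across the sham libraries, against 1.09, 1.11 and 1.41 CPM across the I/R libraries, with overlapping groups and an interval of 0.584 to 1.33 for the fold (adjusted p = 0.853). Galr3, the remaining galanin receptor gene, had 0 reads in every library. Gal, the galanin gene, rose 5.58-fold in the same libraries (edgeR adjusted p = 1.54e-04).

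The neuropeptide Y receptors were among the more abundant of the set. Npy1r (ENSMUSG00000036437), a receptor for neuropeptide Y, stood at 14.4, 17.6 and 18.1 CPM across sham libraries 1 to 3, against 19.3, 20.4 and 22.1 CPM across I/R libraries 1 to 3, without overlap. Its log2 fold change was 0.30 ± 0.12 SE, with a 95% interval of 1.02 to 1.49 for the fold (edgeR unadjusted p = 0.0337, adjusted p = 0.418). Npy2r (ENSMUSG00000028004), known as an autoreceptor at nerve terminals, stood at 24.8, 23.3 and 22.5 CPM across the sham libraries, against 22.5, 28.6 and 28.3 CPM across the I/R libraries. I/R 1 lay among the sham libraries, and the fold had an interval of 0.934 to 1.36 (adjusted p = 0.680). Npy4r, Npy5r and Npy6r had 10, 14 and 3 reads summed over sham and 9, 9 and 2 over I/R libraries and were not tested. Npy itself, which had 14 reads summed over sham and 351 over I/R libraries, rose 23.5-fold (edgeR adjusted p = 1.78e-04).

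Adcyap1r1 (ENSMUSG00000029778), the receptor that prefers the peptide PACAP, stood at 7.91, 7.55 and 7.35 CPM across sham libraries 1 to 3, against 4.74, 6.97 and 6.34 CPM across I/R libraries 1 to 3. The groups did not overlap, with I/R 1 the lowest, and the log2 fold change was -0.34 ± 0.16 SE (95% interval 0.615 to 1.02 for the fold, edgeR adjusted p = 0.525). Vipr2 (ENSMUSG00000011171), which binds VIP and PACAP about equally, had between 7 and 17 reads in a library, 33 over the sham and 34 over the I/R libraries. At that depth the 95% interval of the fold was 0.510 to 1.88 (edgeR adjusted p = 0.988), the widest of the 10 receptors. Vipr1, the other receptor for both peptides, had 19 and 17 reads over the groups and was not tested. Adcyap1, the PACAP gene, rose 1.53-fold (edgeR adjusted p = 0.0107). It lost its call without sham 1 (adjusted p = 0.0992), sham 2 (0.0515) or I/R 2 (0.0842), with a range of 4.2e-06 to 0.499 over the alternatives. Vip had 0 reads over the sham and 4 over the I/R libraries.

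Ntsr2 (ENSMUSG00000020591), a neurotensin receptor also known from glia, stood at 3.24, 3.50 and 2.88 CPM across sham libraries 1 to 3, against 3.01, 3.78 and 1.92 CPM across I/R libraries 1 to 3. The I/R libraries held both the highest and the lowest value, and the fold had a 95% interval of 0.614 to 1.33 (edgeR adjusted p = 0.878). Crhr1 (ENSMUSG00000018634), a receptor for corticotropin-releasing hormone, stood at 2.11, 2.35 and 2.06 CPM across the sham libraries, against 2.27, 1.84 and 2.10 CPM across the I/R libraries, with an interval of 0.695 to 1.31 for the fold (adjusted p = 0.932). Nts rose 2.75-fold (edgeR adjusted p = 0.00467). Its adjusted p was 0.369 with muscle level in the model and 0.0744 for sham 2 alone against I/R, with a range of 1.61e-09 to 0.369 over the alternatives. Crh had 2 reads over the sham and 100 over the I/R libraries and also passed the test (adjusted p = 0.00886, 0.0551 without sham 1, and 9.16e-08 to 0.68 over the alternatives).

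Other receptors and binding proteins for these peptides gave no call. Of 9 such genes, 4 could be tested, with a median log2 fold change of -0.21, beside 0.00 for all genes tested. Of the 4, 0 reached an unadjusted p under 0.05 with edgeR, beside 10.5% of all tested genes, of which 1.15% were called. Ntsr1, the high-affinity neurotensin receptor, had a log2 fold change of -0.33 ± 0.29 SE. Sort1, which encodes the sorting receptor sortilin that also binds neurotensin, averaged 88.9 ± 7.99 CPM in sham mice and 83.2 ± 9.51 CPM in I/R mice. Crhr2, a receptor for urocortins, stood at 2.90, 2.45 and 2.31 CPM across sham libraries 1 to 3, against 2.08, 1.89 and 1.92 CPM across I/R libraries 1 to 3, without overlap (edgeR adjusted p = 0.560). Crhbp, a secreted protein that binds corticotropin-releasing hormone, had 25 and 27 reads over the groups, with 1 read in sham 2. Ucn, which encodes urocortin, had 0 reads in sham and 5, 1 and 1 in I/R 1 to 3, too few to test.

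**Figure D3:**
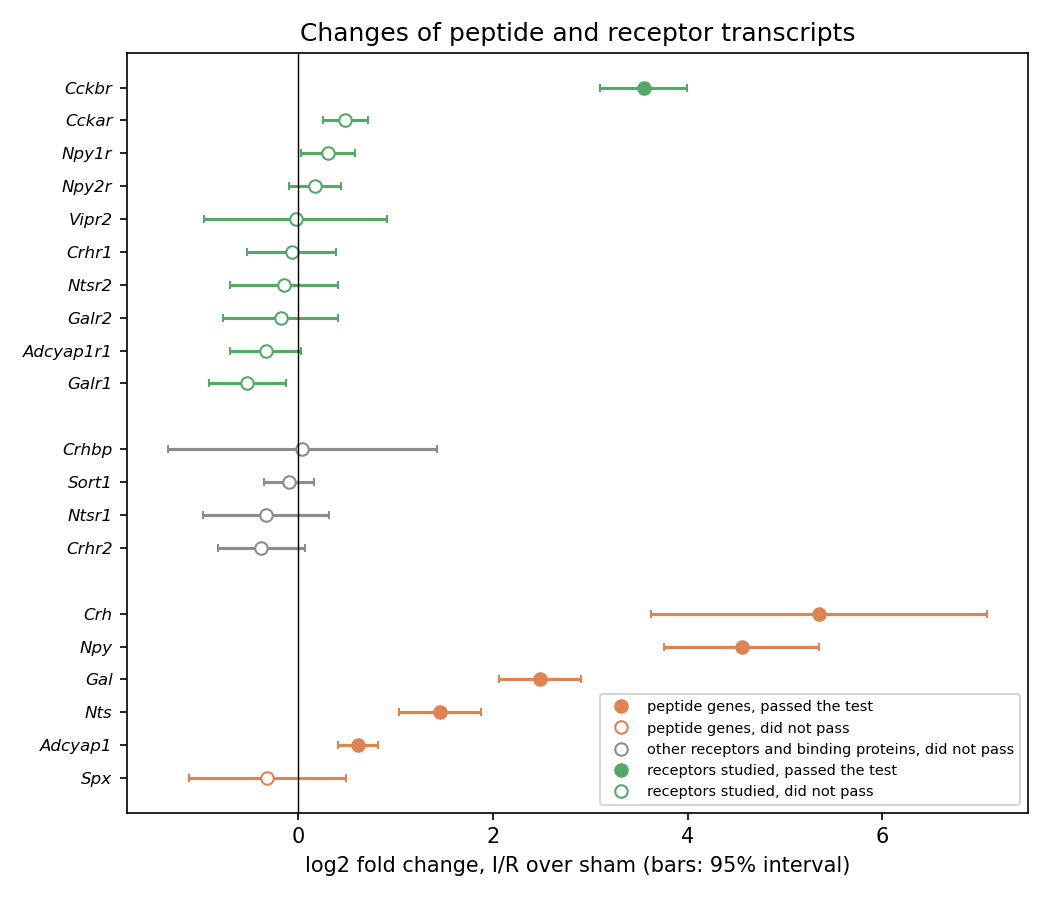
Log2 fold change, I/R over sham, with its 95% interval for the 10 receptors (green), the 4 tested other receptors and binding proteins (grey) and the 6 tested peptide genes (orange). Filled points passed edgeR's test, which were Cckbr and 5 peptide genes. The value for Crh rests on 2 reads in the sham libraries.

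Set beside one another, 5 of the 6 tested peptide genes rose and 1 of the 10 receptors did, beside 0.722% of all tested genes. Of the 14 peptide genes listed, 8 were too low to test. The 5 peptide calls became 3 without sham 1 and 1, Gal, with the skeletal muscle level of each library as a covariate, and Cckbr was called in both fits. The log2 fold changes with and without the covariate were 2.42 ± 0.36 and 2.48 ± 0.19 SE for Gal. They were 4.35 ± 0.67 and 4.55 ± 0.36 for Npy, and 0.68 ± 0.19 and 0.61 ± 0.09 for Adcyap1. For Nts they were 1.44 ± 0.36 and 1.46 ± 0.19, and for Crh 3.32 ± 1.01 and 5.35 ± 0.77. Muscle level was at least 18.7 CPM in sham and at most 15.1 CPM in I/R libraries. The part of muscle in these rises was not tested. With sham 2 alone against I/R, where the spread comes from the I/R libraries only and sham 2 is assumed to vary like them, 2 peptide genes and Cckbr were called. The median log2 fold change was -0.05 over the 10 receptors and 1.97 over the 6 peptide genes. Those peptides were known to be induced in these libraries when the receptors were chosen. Npy and Crh, with 14 and 2 reads summed over the sham libraries, passed the filter on low counts through their I/R reads. Cckbr, with 36 reads summed over the sham libraries, also passed it through its I/R reads. Peptide genes low in both groups, such as Cck, were left out. The 5 of 6 and the median of 1.97 are thus partly set by the filter. The I/R and sham values did not overlap for 5 of the 10 receptors, beside 17.1% of all tested genes. Of these, 3 lay above, beside 9.23% of all tested genes, and 2 below, beside 7.83%. An unadjusted p under 0.05 was found for 4 of the 10, Cckbr, Cckar, Galr1 and Npy1r, beside 10.5% of all tested genes. The receptors were chosen with results of these libraries known, so no test of these shares was made.

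The balance between 2 receptors of a family was compared as the log2 ratio of their CPM, each with 0.1 CPM added. For Cckbr over Cckar the log2 ratio was -6.06, -5.73 and -5.47 across sham libraries 1 to 3, against -2.81, -2.85 and -2.94 across I/R libraries 1 to 3, a shift of 2.88. All 3 I/R values were higher. For Galr1 over Galr2 the log2 ratio was 1.96 ± 0.206 in sham and 1.61 ± 0.0506 in I/R, also without overlap. For Npy1r over Npy2r it was -0.50 ± 0.247 and -0.35 ± 0.130, and for Adcyap1r1 over Vipr2 it was 3.60 ± 0.310 and 3.31 ± 0.615, both with overlap. With 3 mice against 3 the smallest two-sided p of the exact permutation test is 0.1, which the first 2 pairs reached (0.2 adjusted over the 4 pairs), while the other 2 had an exact p of 0.5. With that floor the permutation test cannot place any of these balances past 0.05.

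**Figure D4:**
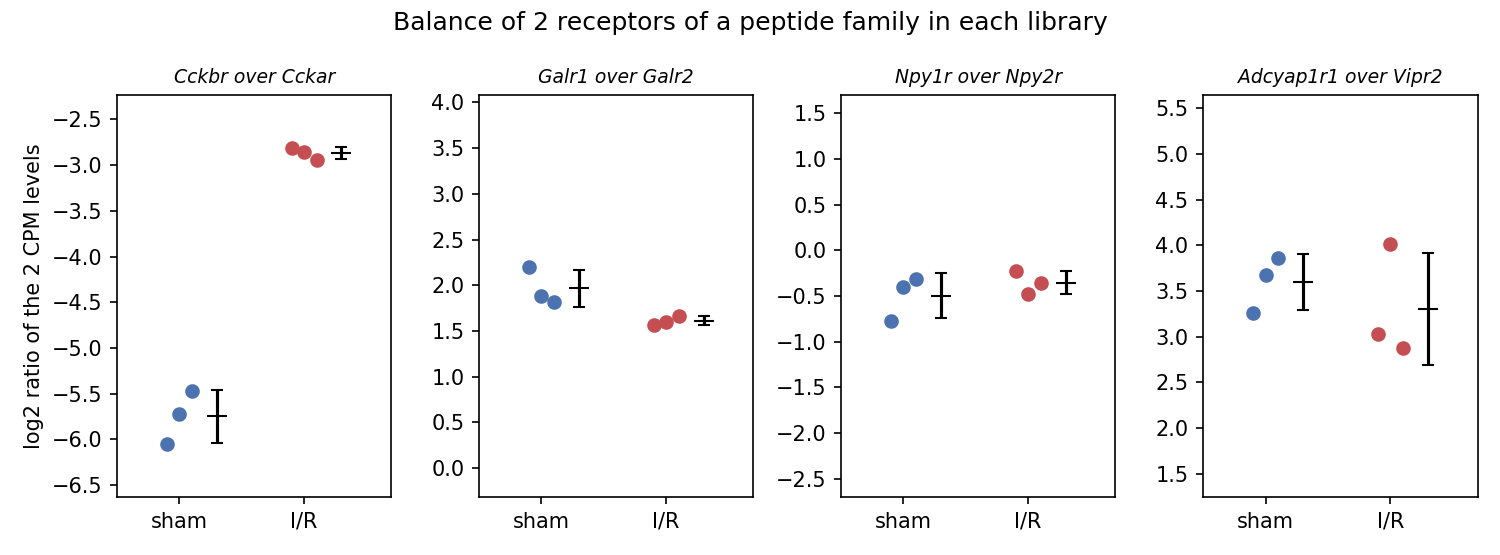
Log2 ratio of the CPM of 2 receptors of a family in each library (sham blue, I/R red; black bars are the mean and SD). Each panel spans the same range of the log2 ratio. The shift of 2.88 for Cckbr over Cckar stands beside an SD of 0.294 in sham and 0.0668 in I/R.

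The genes whose levels followed Cckbr most closely across the 6 libraries were Fgf3, Atf3 and Sez6l, with Pearson correlations of log2 CPM of 0.996, 0.995 and 0.994 among 13523 candidate genes. These values mostly carry the difference between the 2 groups that each gene shows, and they describe 6 libraries. Fgf3, a fibroblast growth factor, rose by 3.62 ± 0.25 SE on the log2 scale, to 4.60 ± 0.628 CPM from 0.368 ± 0.0290 CPM. Atf3, the injury-induced transcription factor, rose by 3.79 ± 0.13 on the log2 scale, and Sez6l, which encodes a neuronal membrane protein, rose by 2.10 ± 0.10. All 3 passed edgeR's test, with adjusted p of 8.4e-05, 6.13e-07 and 8.67e-06.

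The signaling machinery behind the receptors gave no call in edgeR's test. Of 29 genes for G proteins, adenylyl cyclases, phospholipase C beta and protein kinase A, none was called, beside 1.15% of all tested genes. Of the 29, 0 had an unadjusted p under 0.05, beside 10.5% of all tested genes. Their median log2 fold change was 0.02. The smallest p values were those of Plcb4, a phospholipase C, at 0.21 ± 0.12 SE and Gnai3, an inhibitory G protein subunit, at 0.15 ± 0.09 SE. Of 15 genes for receptor kinases, arrestins and regulators of G protein signaling, none was called and 2 had an unadjusted p under 0.05, beside 10.5% of all tested genes. The 2 were Arrb1, an arrestin that uncouples receptors from G proteins, averaging 515 ± 35.6 CPM in sham mice and 611 ± 41.3 CPM in I/R mice (adjusted p = 0.374), and Grk6, a receptor kinase, at 80.5 ± 8.93 and 95.8 ± 3.82 CPM (adjusted p = 0.437). DESeq2 and limma-voom called none of them either.

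The genes listed for peptidases gave no call with the filter on low counts in edgeR's test, beside 1.15% of all tested genes. Of 9 peptidase genes, 2 had an unadjusted p under 0.05, beside 10.5% of all tested genes. Dpp4, the dipeptidyl peptidase that trims neuropeptide Y, stood at 1.03, 1.35 and 2.06 CPM across sham libraries 1 to 3, against 0.346, 0.242 and 0.913 CPM across I/R libraries 1 to 3 (log2 fold change -1.53 ± 0.47 SE, adjusted p = 0.230, 0.0291 without the filter and 0.0291 to 1 over the alternatives). Anpep, aminopeptidase N, stood at 4.24 ± 0.524 and 2.68 ± 0.926 CPM (adjusted p = 0.391). Both enzymes are also made by fibroblasts and meningeal cells. Of 9 fibroblast and meningeal markers, 8 fell, beside 0.428% of all tested genes. The summed level of the 9 was 691 to 838 CPM in sham and 351 to 415 CPM in I/R. The part of those cells in the values of Dpp4 and Anpep was not tested.

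Sensory neuron markers, summed over 12 genes, stood at 17300 to 18500 CPM in sham and at 15800 to 19100 CPM in I/R. Of the 12, 0 were called and none was at 0. Of all tested genes, 1.15% were called, 0.722% higher and 0.428% lower. The sums of 6 satellite glia markers, of which 1 fell, were 1040 to 1080 CPM in both groups, those of 7 Schwann cell markers 6810 to 7060 CPM in sham and 5820 to 6520 CPM in I/R, and those of 8 macrophage markers 44.8 to 47.2 and 53.2 to 55.2 CPM. Endothelial sums were 170 to 179 and 171 to 186 CPM, and mural cell sums 257 to 272 and 229 to 271 CPM. Lymphocyte markers, of which 1 of the 2 tested fell, summed to 22.2 to 26.8 CPM in sham and 13.3 to 17.2 CPM in I/R. Spinal cord markers, with 0 of the 2 tested called, summed to 30.5, 8.1 and 22.5 CPM across sham libraries 1 to 3, high in the libraries rich in muscle transcripts, and to 8.5 to 11.2 CPM in I/R. Summed over 9 skeletal muscle markers, of which 2 fell, the level was 489 and 252 CPM in sham 1 and sham 3, 18.7 CPM in sham 2, and 5.98 to 15.1 CPM in I/R. Cckbr stood at 0.650 CPM in sham 2, between its values in sham 1 and sham 3. Its log2 fold change was 3.41 ± 0.39 SE with muscle level in the model, beside 3.55 ± 0.20 SE without it. For sham 2 alone, a single library, against I/R it was 3.41. Every sham library had a higher muscle level than every I/R library, and the part of muscle in the Cckbr difference was not tested. Library totals were 19092650 to 22010227 expected counts.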

How the data were processed

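Per the labels' protocols, TRIzol RNA went into a stranded Illumina mRNA library kit. Assembly GRCm39 and the tools fastp, HISAT2 and StringTie are listed in the submitters' processing notes, while the counting program, strand setting and annotation release are not stated there. The authors deposited 1 table of expected counts per gene and library, not scaled to library size, in which 10.7% to 11.5% of a library's values were not whole, and they were rounded. The deposited table also gives gene symbols and the gene lengths behind RPKM.

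The main test was edgeR's quasi-likelihood test (edgeR 4.0.16, R 4.3.3), with TMM normalization, filterByExpr as the filter on low counts and Benjamini-Hochberg adjustment over all genes. The SE is the log2 fold change over the root of F, and intervals are 95%. CPM and RPKM use TMM-scaled library sizes. On simulated counts (16140 genes, changed ones at 1 CPM or more), recovery was 42% at a 1.5-fold change, 86% at 2-fold and 100% at 4-fold, and 7.87% of its calls were false. No 2 libraries of a group agreed within sampling noise (chi-square per degree of freedom 4.26 to 30.5).

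The receptors, lists and rules were chosen with earlier results of these data known. Named were all receptors of these peptides, called genes or the 2 of smallest p in the other lists, and the 3 genes most correlated with a called receptor (mean of at least 1 CPM, predicted genes left out). The alternatives tried were DESeq2 1.42.0, limma-voom (limma 3.58.1), RLE and upper-quartile scaling, robust dispersion, other filters, the replicate number as a block, muscle level as a covariate, sham 2 alone, and each library left out. Promoters came from RefSeq on GRCm38.p6, not the assembly of the counts, and were matched by symbol.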

Additional observations from a re-analysis of the deposited data

How the results depend on the processing

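Cckbr was called higher under all 16 alternatives, with log2 fold changes of 3.41 to 3.62 and adjusted p of 1.74e-22 to 0.0103. One of them, sham 2 alone against I/R, has no sham replicate and takes its spread from the I/R libraries. The count of receptors called higher was 2 in DESeq2, with robust dispersion and without the filter on low counts, where Cckar was added, and 1 under every other alternative. No alternative called a receptor lower. Leaving out 1 library gave 1 receptor in each case. The sign of Vipr2, from 33 and 34 reads, turned with the muscle covariate (0.18), without sham 1 (0.24), without I/R 1 (0.03), without I/R 2 (0.19) and with sham 2 alone (0.081), and that of Ntsr2 turned without I/R 3 (0.083), none of them past the threshold. Leaving out 1 library gave values down to -0.399 for Vipr2 and -0.398 for Ntsr2. Vipr2 and Crh were not tested under the stricter filter (3 libraries at 1 CPM or more). The 5 peptide genes called higher, the only calls in the pathway lists, became 2 with the replicate block, 1 with the muscle covariate, 2 with sham 2 alone, and 3 to 5 when 1 library was left out. Without the filter 1 pathway gene was called lower, Dpp4.

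Over all genes, the calls higher and lower were 118 and 70. They were 161 and 140 in DESeq2, 257 and 237 without the filter, 42 and 21 with the replicate block, 15 and 5 with the muscle covariate, and 25 and 7 with sham 2 alone. Leaving out 1 library gave 62 to 116 higher and 24 to 85 lower. The block changed no call among the receptors. It ended those of Adcyap1 (adjusted p = 0.0762), Nts (0.0803) and Crh (0.0735). The numbers were not taken as pairs because nothing in the labels says that a number marks a litter or day. Deviations of same-numbered libraries from their group means had correlations of -0.142, 0.179 and -0.158 over 14745 genes. Those of differently numbered libraries were -0.254 to 0.338. With 3 libraries per group these values cannot decide whether the libraries were paired. Adding 0.5 CPM moved the shift of Cckbr over Cckar to 2.31. Leaving out 1 library gave 2.73 to 3.02 there, -0.43 to -0.24 for Galr1 over Galr2, 0.00 to 0.24 for Npy1r over Npy2r and -0.65 to -0.08 for Adcyap1r1 over Vipr2. The causes were not tested. Reads summed over the sham and I/R libraries were few for Vipr2 (33 and 34), Ntsr1 (66 and 55) and Galr2 (82 and 76). Cckbr had 36 over the sham libraries. The receptors with under 20 reads in a group were filtered out. The part of depth in the spread of these receptors was not tested.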
